A study of Mus musculus with 8 samples.

Results

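Glucocorticoid hormone acts on cells through 2 nuclear receptors and a set of genes that those receptors switch on. Described here are 10 such genes in mouse cortex: the receptor genes Nr3c1 and Nr3c2, and the genes Fkbp5, Sgk1, Tsc22d3, Ddit4, Cdkn1a, Zbtb16, Mt2 and Plin4, all known to be induced by glucocorticoids. They were chosen by name from the 22000 genes of the count table, with Fkbp5 first because it differed between the genotypes, and all 10 had enough reads to be among the 13879 genes tested. Messenger RNA was measured by sequencing of polyadenylated RNA from the whole cortex of 8 mice, with 1 library per mouse. The libraries came from 4 mice labelled Mef2c heterozygous and 4 labelled Mef2c wild type, each with 2 males and 2 females. No treatment is named in the labels. Strain, age, time of sampling and the altered part of the gene Mef2c, which encodes a transcription factor active in neurons and microglia, are not stated there.

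Total counts were 16092773 to 17841377 per library, and RNA integrity numbers were 8.6 to 9. Mef2c had 20817, 23035, 22395 and 22426 counts in the libraries labelled heterozygous and 17843, 16299, 17432 and 16546 in those labelled wild type. The gene with 1 altered copy by its label was thus expressed at a higher level under the heterozygous label, and all directions are given by label. The animal numbers in the titles fall into a lower-numbered first series and a higher-numbered second series, each with 1 mouse of either sex and genotype, and the labels do not state what separates them. Markers of cortical excitatory neurons summed to between 8755 and 9668 CPM (counts scaled by library size), while the 2 choroid plexus markers that could be tested summed to at most 5.57 CPM.

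Corticosterone, the main glucocorticoid of mice, binds the glucocorticoid receptor (Nr3c1) and the mineralocorticoid receptor (Nr3c2), which chaperones hold ready in the cytoplasm. The bound receptor moves to the nucleus and activates genes through glucocorticoid response elements, short palindromic DNA sites. Fkbp5 encodes a co-chaperone that lowers the receptor's affinity for hormone, so its induction forms a short negative feedback loop, and its transcript is widely used as a readout of glucocorticoid action in brain.

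The promoter windows of 4 members are shown. Mt2 and Plin4 stand beside Fkbp5 as the members of highest correlation with it within genotypes. Sgk1 holds the only full response element among the windows searched. The windows are RefSeq promoters (assembly GRCm38.p6) running from 250 bases before to 50 bases after a start site. They are written 5′ to 3′ on the gene's strand, and capitals mark motif matches. In the Sgk1 window (chr10:21993640-21993939, plus strand) capitals mark the glucocorticoid response element and its single site. In the Mt2 window (chr8:94172368-94172667, plus strand) they mark the core of metal response elements, through which metallothionein genes are known to answer zinc. The Fkbp5 window (chr17:28486100-28486399, minus strand) and the Plin4 window (chr17:56109733-56110032, minus strand) hold none of the motifs searched.
Sgk1: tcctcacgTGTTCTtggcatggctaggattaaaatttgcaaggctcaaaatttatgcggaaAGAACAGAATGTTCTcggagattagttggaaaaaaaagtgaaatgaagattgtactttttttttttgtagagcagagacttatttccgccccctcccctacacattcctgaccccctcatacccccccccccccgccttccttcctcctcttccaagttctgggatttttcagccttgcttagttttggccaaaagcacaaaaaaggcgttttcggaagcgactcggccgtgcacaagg
Mt2: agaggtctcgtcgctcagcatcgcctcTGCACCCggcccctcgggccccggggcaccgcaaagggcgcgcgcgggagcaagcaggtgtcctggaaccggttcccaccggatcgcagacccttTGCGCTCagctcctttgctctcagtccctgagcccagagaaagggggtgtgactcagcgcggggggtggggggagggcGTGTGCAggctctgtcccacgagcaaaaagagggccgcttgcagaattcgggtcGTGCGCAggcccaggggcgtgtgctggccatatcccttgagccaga
Fkbp5: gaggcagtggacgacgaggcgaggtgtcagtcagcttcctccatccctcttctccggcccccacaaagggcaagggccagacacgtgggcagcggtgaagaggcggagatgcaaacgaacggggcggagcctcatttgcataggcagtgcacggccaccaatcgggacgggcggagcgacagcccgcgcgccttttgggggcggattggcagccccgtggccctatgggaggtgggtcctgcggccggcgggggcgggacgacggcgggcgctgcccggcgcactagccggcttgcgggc
Plin4: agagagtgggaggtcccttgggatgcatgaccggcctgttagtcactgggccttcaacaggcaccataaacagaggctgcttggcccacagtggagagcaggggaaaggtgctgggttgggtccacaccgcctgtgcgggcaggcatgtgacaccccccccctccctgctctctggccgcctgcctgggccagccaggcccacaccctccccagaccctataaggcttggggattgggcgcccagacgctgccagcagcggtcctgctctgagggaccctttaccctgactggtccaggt

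Of the 10 members, 8 had windows searched, 16 windows in all. No window of Nr3c1 was searched, because members' windows on its chromosome were left out, and none was available for Zbtb16. The full element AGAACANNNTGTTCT, searched on both strands, was found once, starting 189 bases before a start of Sgk1, and in 3 of 32851 windows of all genes (0.00913%). Its shorter core GNACANNNTGTNC, which the full element contains, was found in the same Sgk1 window and in 0.475% of all windows. The single site TGTTCT, which makes up either arm of the full element, was found in 4 windows of Sgk1 and Tsc22d3 and in 19.0% of all windows. The metal response core was searched as TGCACNC and TGCGCNC, which occur in 12.6% and 15.4% of all windows. Among members TGCACNC was found in 1 (Mt2) and TGCGCNC in 4 (Mt2, Nr3c2, Sgk1 and Ddit4). The Mt2 window held 4 matches, starting 223, 128 and 50 bases before the start and at base 5 of the transcript. These were 2 of each form, and 1.58% and 4.2% of all windows held 2 or more. A window without a match says only that these letters are not in these 300 bases.

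The genotype contrast chose Fkbp5 for description, so its values there, the p included, say how it was chosen and support nothing further. Fkbp5 had 47.5, 35.4, 51.4 and 44.3 CPM in replicates 1 to 4 of the libraries labelled heterozygous and 33.8, 31.8, 37.8 and 27.0 CPM in those labelled wild type. Replicates are called heterozygous or wild type after these labels, and values follow this order throughout. The mean was 44.7 ± 6.79 CPM (SD, n = 4) against 32.6 ± 4.46 CPM (SD, n = 4), 1.37-fold. Heterozygous replicate 2, at 35.4 CPM, lay below wild type replicate 3, at 37.8 CPM, and the other 3 heterozygous libraries lay above every wild type library. On the log2 scale this was a fold change of 0.45 ± 0.09 (SE), and the Benjamini-Hochberg adjusted p by which the gene was called, from edgeR's quasi-likelihood test, was 0.0302. Parts of the same contrast gave 0.50 on the log2 scale within males, 0.39 within females, 0.32 within the first series and 0.57 within the second. With each library left out in turn the log2 fold change ran from 0.39 to 0.53 and the adjusted p from 0.0127 to 0.159, and it missed 0.05 in 4 of these fits, those without heterozygous replicate 3, heterozygous replicate 4, wild type replicate 2 and wild type replicate 4. It missed 0.05 without the sex term as well (log2 fold change 0.45, edgeR adjusted p = 0.147).

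**Figure D1:**
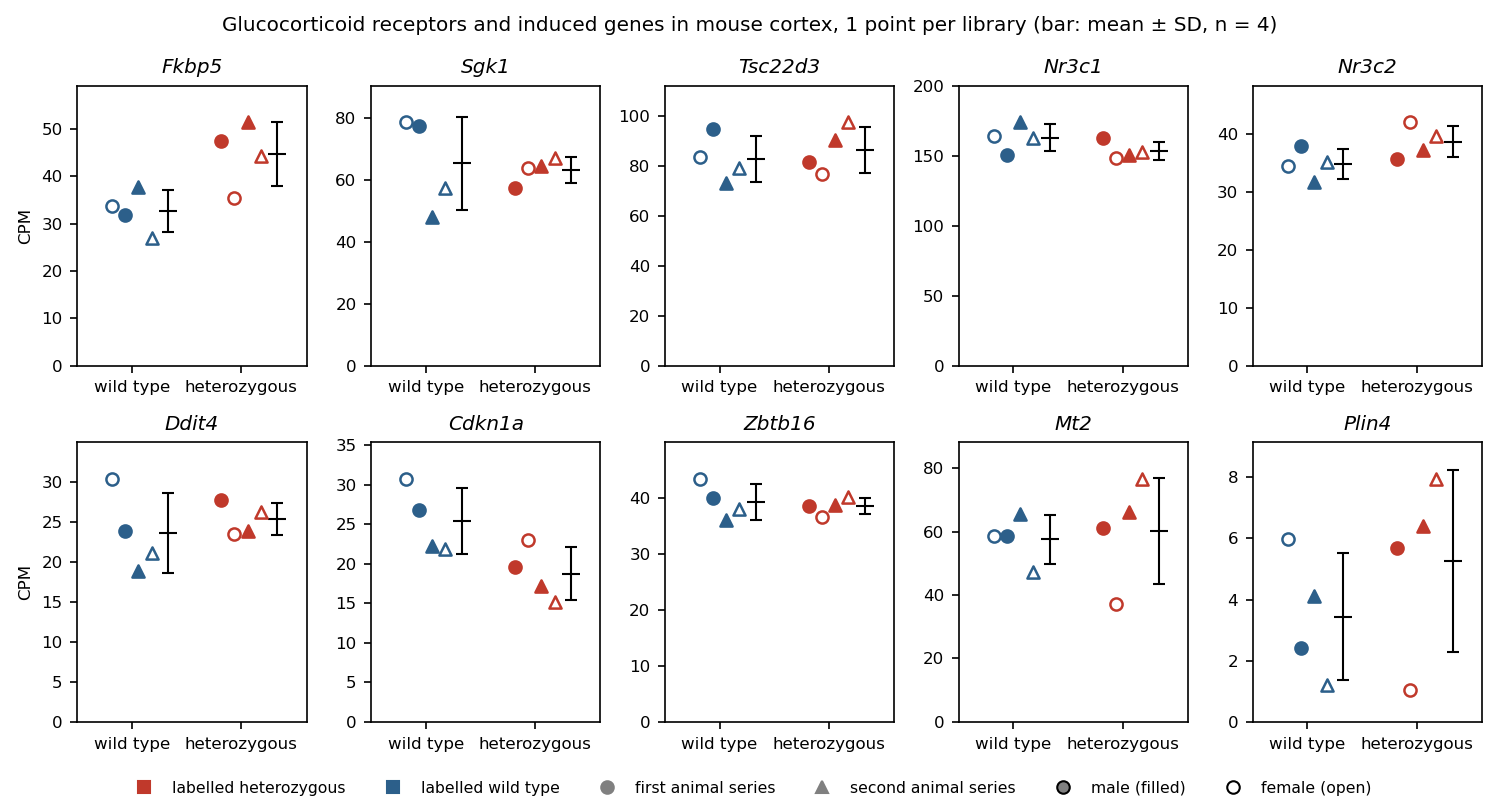
Level in CPM (vertical axes, from 0) of the 10 genes in each library, by labelled genotype; circles and triangles are the first and second animal series, filled points males, open points females, and bars the mean ± SD of 4 libraries. The 2 genotypes overlap in every panel, Fkbp5 with 35.4 to 51.4 CPM against 27.0 to 37.8 CPM.

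None of the other 9 members passed the test for genotype, by edgeR, DESeq2 or limma-voom. Over all tested genes 37 of 13879 were called (0.267%), and the single call among the members is Fkbp5, the gene the contrast picked, so nothing is read from that count. At an unadjusted p under 0.05 there were 2 members, Fkbp5 and Cdkn1a, against 7.24% of all tested genes. No member had groups without overlap, which 4.55% of tested genes had. The members' median log2 fold change was 0.07 with 6 of 10 above 0, beside a median of -0.0011 with 49.5% above 0 over all tested genes. The count at an unadjusted p, the count above 0 and the median all include Fkbp5. Its direction and p were fixed by the choice, so nothing is read from these either.

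The receptor genes were among the 3 least variable members. Nr3c1, the glucocorticoid receptor gene, had 163, 149, 150 and 153 CPM in the libraries labelled heterozygous and 165, 151, 174 and 163 CPM in those labelled wild type. Its log2 fold change was -0.09 ± 0.06 (SE; edgeR adjusted p = 0.842), and its coefficient of variation within genotypes, 5.0%, was the lowest of the 10 members, against a median of 8.88% over all tested genes. Nr3c2, the mineralocorticoid receptor gene, had 35.7, 41.9, 37.3 and 39.6 CPM against 34.4, 37.9, 31.7 and 35.2 CPM, a log2 fold change of 0.15 ± 0.08 (SE; edgeR adjusted p = 0.741). Both receptors' groups overlapped. Per kilobase of exon, Nr3c1 stood 2.99 to 4.63 times above Nr3c2 in every library.

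Among the induced genes, Cdkn1a, which encodes a cyclin-dependent kinase inhibitor, was lower on average in the libraries labelled heterozygous. It had 19.6, 23.0, 17.1 and 15.2 CPM there and 30.8, 26.8, 22.3 and 21.9 CPM in the libraries labelled wild type. Only heterozygous replicate 2 reached into the wild type range. Its log2 fold change of -0.44 ± 0.13 (SE) was the size of that of Fkbp5 with the opposite sign, and it missed the threshold (edgeR adjusted p = 0.297). With the animal series as a further term beside sex the same fold change had an edgeR adjusted p of 0.0248, and within the first and second series it was -0.43 and -0.44. With the 4 sets of mice matched by sex and series as a block, added after the data had been seen, the edgeR adjusted p was 0.0115.

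Sgk1, a kinase gene of ion transport and cell survival, had 57.5, 63.8, 64.5 and 67.3 CPM in the libraries labelled heterozygous and 78.6, 77.3, 48.2 and 57.3 CPM in those labelled wild type. The wild type libraries spanned the wider range, with replicates 1 and 2 above and replicates 3 and 4 below all 4 heterozygous libraries. Tsc22d3, also called Gilz, which encodes an anti-inflammatory leucine zipper protein, had 81.5, 76.6, 90.5 and 97.3 CPM against 83.4, 94.7, 73.0 and 79.3 CPM. Their log2 fold changes were -0.05 ± 0.17 and 0.07 ± 0.09 (SE).

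Ddit4, an inhibitor of mTOR signalling, had 27.7, 23.5, 23.9 and 26.2 CPM against 30.4, 23.9, 18.9 and 21.1 CPM. Zbtb16, a zinc finger transcription factor gene, had 38.5, 36.6, 38.6 and 40.1 CPM against 43.4, 39.9, 35.9 and 37.9 CPM. For both, the 4 heterozygous libraries lay inside the range of the wild type ones. Their log2 fold changes were 0.11 ± 0.12 and -0.03 ± 0.08 (SE).

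Mt2, a metallothionein that binds zinc, had 61.2, 37.1, 66.1 and 76.6 CPM in the libraries labelled heterozygous and 58.5, 58.6, 65.7 and 47.2 CPM in those labelled wild type. Heterozygous replicate 2 was the lowest library of all and heterozygous replicate 4 the highest. Plin4, a lipid droplet coat protein, was the scarcest and most variable member, with 96, 18, 103 and 142 counts against 103, 42, 72 and 20, and its highest CPM was 7.61 times its lowest. Their log2 fold changes were 0.07 ± 0.24 and 0.60 ± 0.74 (SE) and neither passed (edgeR adjusted p = 0.997 and 0.967). Reads of Mt2 can be shared with its near copy Mt1. Plin4 overlaps Hdgfl2 on the opposite strand, whose row (named Hdgfrp2) had 59.0 to 72.1 CPM and a correlation of -0.66 with Plin4 within genotypes, and Fkbp5 and Mt2 overlap annotated antisense transcripts. Whether the counting used strand is not stated.

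Per kilobase of exon, Mt2 was the most abundant member, at 102.5 CPM per kb in the libraries labelled heterozygous and 97.8 in those labelled wild type. Nr3c1 (19.99 and 21.2), Tsc22d3 (19.9 and 19.0), Ddit4 (14.4 and 13.4) and Sgk1 (12.9 and 13.3) followed. Zbtb16 (7.28 and 7.43), Nr3c2 (5.97 and 5.37), Cdkn1a (5.28 and 7.16) and Fkbp5 (4.72 and 3.44) were lower, and Plin4 (0.912 and 0.595) was lowest. Of neighbours in this order, Nr3c1 and Tsc22d3, Ddit4 and Sgk1, Nr3c2 and Cdkn1a, and Cdkn1a and Fkbp5 differed by less than the larger SD of the pair in at least 1 genotype.

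On GRCm38, with GENCODE M21 gene bounds, 3 members lie on chromosome 17: Fkbp5 from 28399094 to 28517527 (minus strand), Cdkn1a from 29090976 to 29100727 (plus strand) and Plin4 from 56100591 to 56109803 (minus strand). Sgk1 (21882184 to 21999903, plus strand) and Ddit4 (59949669 to 59951834, minus strand) lie on chromosome 10, and Mt2 (94172664 to 94173568, plus strand) and Nr3c2 (76899442 to 77245012, plus strand) on chromosome 8. Zbtb16 is on chromosome 9, Tsc22d3 on chromosome X and Nr3c1 on chromosome 18. All 10 are annotated as protein coding, and the counts cover the whole gene, without telling exons or isoforms apart.

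**Figure D2:**
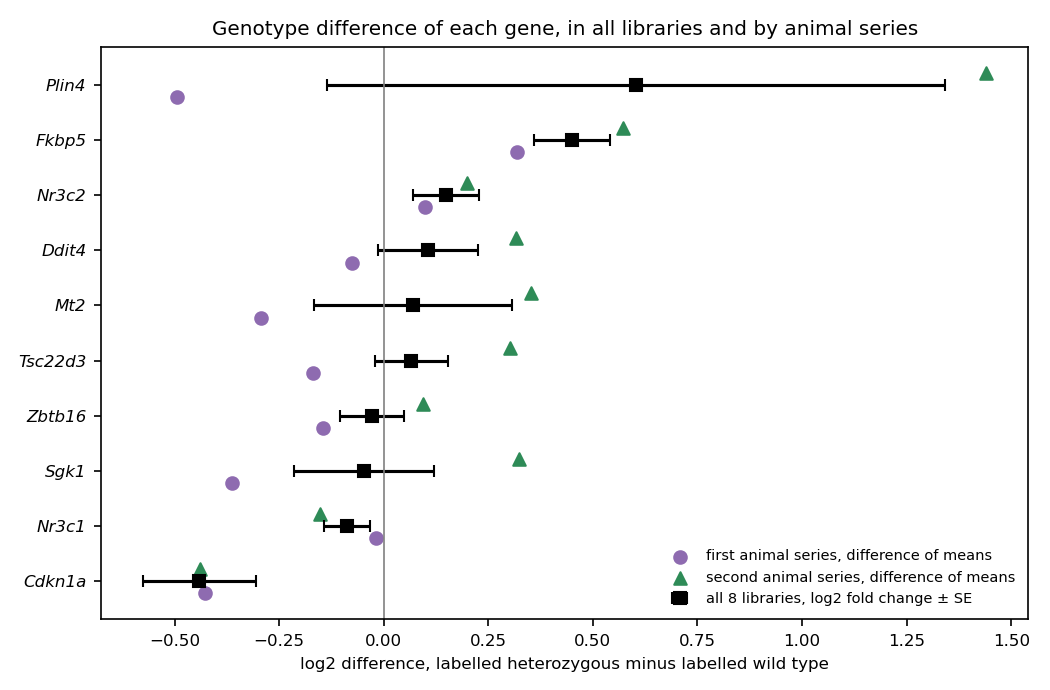
Log2 difference of each gene, libraries labelled heterozygous minus labelled wild type (horizontal axis); squares are the fold change over all 8 libraries ± SE, and circles and triangles the difference of mean log2 CPM within the first and second animal series. Fkbp5 (0.32 and 0.57), which this contrast chose, and Nr3c2 (0.099 and 0.199) lie right of 0 in both series. Cdkn1a (-0.43 and -0.44) and Nr3c1 (-0.019 and -0.153) lie left of 0 in both, while Sgk1, Tsc22d3, Ddit4, Zbtb16, Mt2 and Plin4 change sides. Thus 4 members keep their sign, beside 53.5% of tested genes.

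The question whether Fkbp5 moves with the other members was put to the variation inside the genotypes. The fit that chose Fkbp5 used this variation too, for its spread and its sex term, so the test is not independent of that choice. Levels as log2(CPM + 0.5) were centred within each genotype and correlated over the 8 libraries, with a two-sided exact permutation test of libraries within genotype. Plin4 had the highest correlation with Fkbp5, Pearson r = 0.86 (exact permutation p = 0.0295, Benjamini-Hochberg adjusted over 9 members 0.156), with Spearman rho = 0.62 (exact p = 0.153, adjusted 0.344). Mt2 followed at r = 0.82 (exact permutation p = 0.0347, adjusted 0.156), with rho = 0.71 (exact p = 0.0747, adjusted 0.336). Nr3c2 went the other way, at r = -0.73 (exact permutation p = 0.0660, adjusted 0.198) and rho = -0.86 (exact p = 0.0278, adjusted 0.250). No member of the 9 passed after adjustment, and 2 by Pearson and 1 by Spearman had an unadjusted p under 0.05, which 3.54% and 3.03% of the 13878 other tested genes had.

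Nr3c1 had r = 0.43 and Cdkn1a r = -0.27. Sgk1, Tsc22d3, Ddit4 and Zbtb16, the other induced genes, had r from -0.15 to 0.17. No difference between the members' correlations was tested. Heterozygous replicate 2 and wild type replicate 4, both females, were the lowest library of their genotype for Fkbp5, for Mt2 and for Plin4. Their RNA integrity numbers were 8.6 and 8.9, and 4.65% of tested genes had the same 2 libraries lowest.

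Without the libraries farthest from the Fkbp5 median, heterozygous replicate 3 and wild type replicate 4, r over the 6 others was 0.82 for Plin4, 0.82 for Mt2, -0.88 for Nr3c2 and 0.80 for Nr3c1. With the animal series centred out too, r was 0.85 for Plin4, 0.82 for Mt2 and -0.72 for Nr3c2. That centring leaves 16 orders and a smallest exact p of 0.0625, so no member could pass. With each library left out in turn, r ran from 0.69 to 0.92 for Plin4, from 0.60 to 0.97 for Mt2 and from -0.86 to -0.59 for Nr3c2. A series alone holds 4 libraries, too few for a correlation. Without centring, which brings the genotype difference of Fkbp5 back in, r was 0.73 for Plin4 (exact permutation p = 0.0439, adjusted 0.291), 0.56 for Mt2 and 0.14 for Nr3c2.

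**Figure D3:**
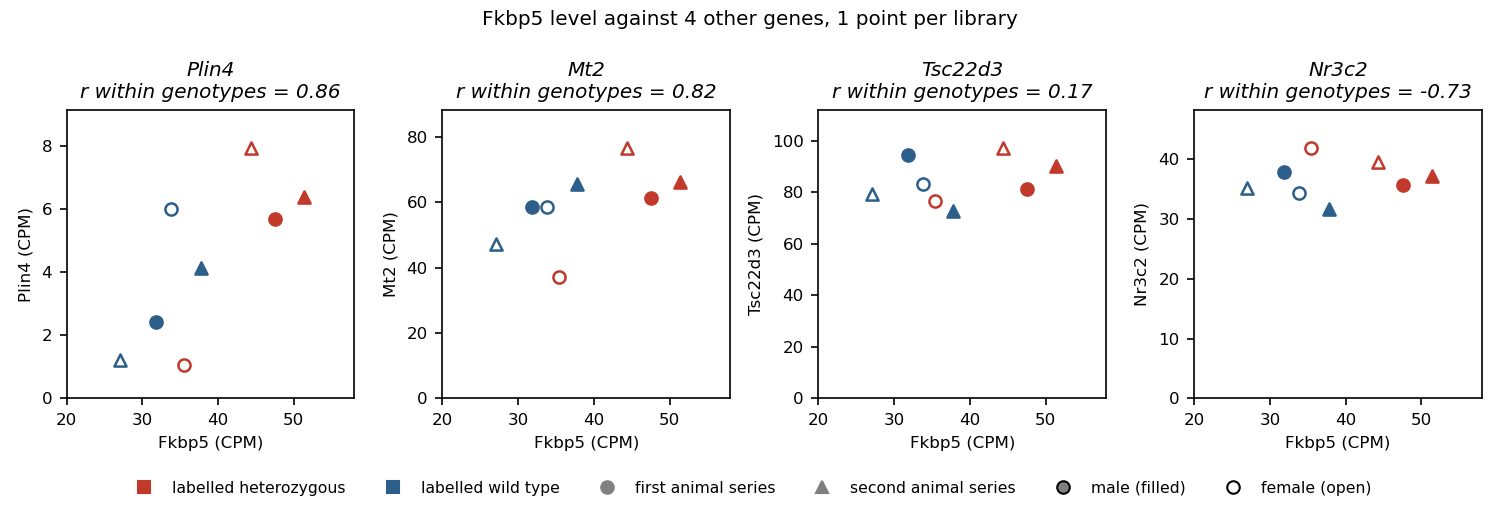
Fkbp5 level (horizontal axes, CPM, from 20) against Plin4, Mt2, Tsc22d3 and Nr3c2 (vertical axes, CPM, from 0), 1 point per library, with colour for labelled genotype, shape for animal series and fill for sex. Inside each colour Plin4 and Mt2 rise with Fkbp5 (r = 0.86 and 0.82), Tsc22d3 has no clear slope (0.17) and Nr3c2 falls (-0.73).

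Correlations among the members themselves are described without a test, because the pairs were picked from these values. Of 45 pairs of members, 31 had a correlation above 0 within genotypes and 12 one over 0.5, with a median of 0.27. The same shares over pairs of all tested genes were not computed, so these counts are not read as a trait of the members. Mt2 and Plin4 had r = 0.91. Ddit4 and Zbtb16 had r = 0.93, Sgk1 and Zbtb16 0.83, Sgk1 and Ddit4 0.75, and Sgk1 and Tsc22d3 0.71. Tsc22d3 and Ddit4 had 0.41, while Tsc22d3 and Mt2 had 0.54, Zbtb16 and Plin4 0.55, and Sgk1 and Nr3c2 0.64, so the pairs did not fall into separate sets. Wild type replicate 3 was the lowest of all 8 libraries for Sgk1, Tsc22d3, Ddit4, Zbtb16 and Nr3c2. The receptor genes ran opposite to each other, with r = -0.89.

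Fkbp5 was also set beside other genes of the pathway. Over all 13878 other tested genes the median r with Fkbp5 was 0.0017, and 11.2% had r over 0.5. Of 29 tested genes among 30 further genes known to be induced by glucocorticoids, 20 had r above 0, 8 (27.6%) had r over 0.5, and the median was 0.25. Chosen after their values were seen, the highest were Sdc4, a membrane proteoglycan (0.94), and Sult1a1, a sulfotransferase (0.90), and the lowest Errfi1, an inhibitor of EGF receptor signalling (-0.66). Chaperones and co-chaperones of the steroid receptor complex, which hold the receptor in its hormone-binding state, had a median r of -0.16, and 0 of 16 had r over 0.5. Coregulators of nuclear receptors had a median of 0.04 over 12 genes, and genes of corticosterone supply and its upstream control -0.14 over 9.

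Genes outside the pathway lay as high. The 11 activity-induced early genes all had r above 0, with a median of 0.48, and 13 of 15 circadian clock genes had r above 0, with a median of 0.33. An r over 0.5 was found in 5 (45.5%) and 4 (26.7%) of them. The clock genes Ciart and Hlf had r = 0.77 and 0.73. Oligodendrocyte markers had r above 0 in 9 of 9 (median 0.38; over 0.5 in 2, 22.2%) and microglia markers in 0 of 6 (median -0.42). Among genes whose mean log2 CPM reached 1, the profiles most like that of Fkbp5 within genotypes, over 8 libraries, were those of Zfp954 (0.96), Actr8 (0.95), Spns2 (0.95), St7 (0.95) and Fam120b (0.94). The least like were Asxl2 (-0.95), Gm6563 (-0.94), Zfp711 (-0.94), Celf6 (-0.94) and Drc1 (-0.93). Plin4 stood above 99.5% and Mt2 above 99.1% of tested genes, and Nr3c2 above 2.29%. All these correlations rest on the same 8 libraries and are descriptions.

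**Figure D4:**
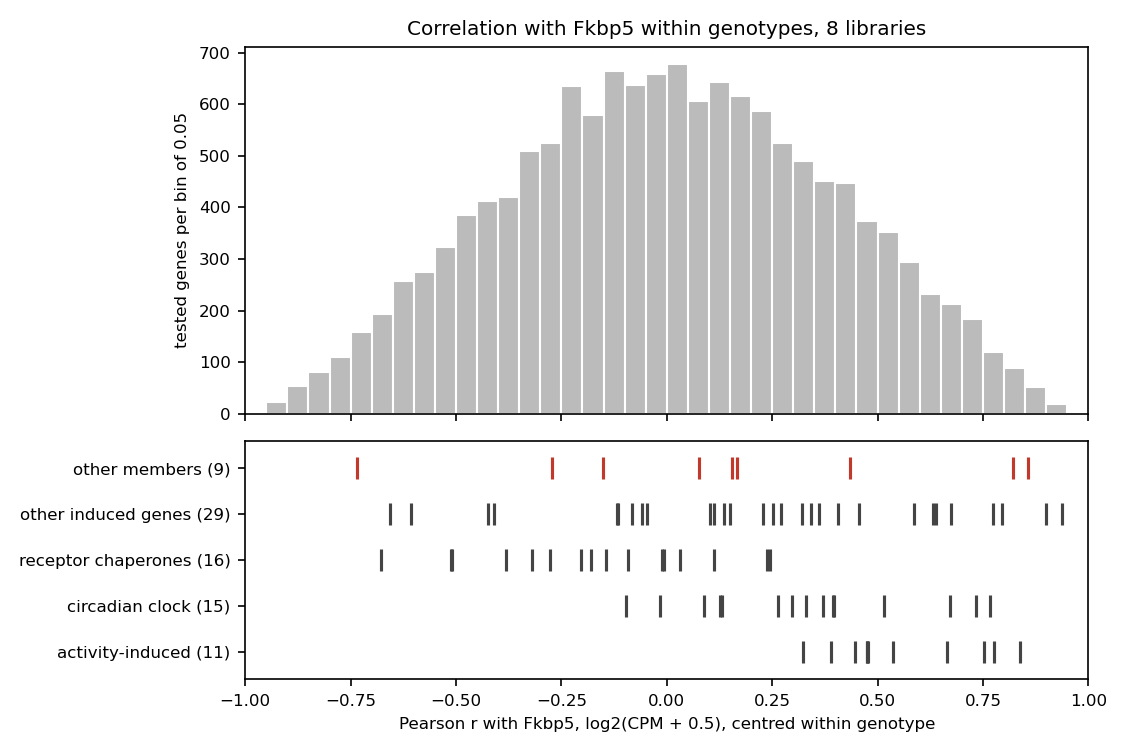
Upper panel, number of tested genes (vertical axis) in bins of 0.05 of their Pearson r with Fkbp5 within genotypes (horizontal axis); lower panel, 1 tick per gene for the other 9 members and 4 gene lists. Plin4 and Mt2 are the 2 rightmost member ticks (0.86 and 0.82), Nr3c2 the leftmost (-0.73), and the ticks of activity-induced genes all lie right of 0.

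The pathway lists were also compared between the genotypes. Of the 29 induced genes 16 were above 0 and 13 below, with a median log2 fold change of 0.05. None was called by edgeR, DESeq2 or limma-voom, while 3 had an unadjusted p under 0.05 in edgeR, beside 7.24% of all tested genes. These were Sdc4 (0.26), Glul (-0.14) and Errfi1 (0.19), with edgeR adjusted p = 0.141, 0.269 and 0.537. Glul and Errfi1, 2 of the 29, had groups without overlap, which 4.55% of tested genes had. None of the 16 chaperones, 12 coregulators, 9 genes of corticosterone supply or 15 clock genes was called by any of the 3 tools. In edgeR 0, 0, 2 and 3 had an unadjusted p under 0.05. The 2 genes of corticosterone supply and its control were Crhr1 (-0.35, edgeR adjusted p = 0.122) and Crhbp (0.40, edgeR adjusted p = 0.147). Crhr1 was the 1 gene of those 9 whose groups did not overlap. The coregulators with the smallest p were Nrip1 (-0.09) and Ncoa2 (-0.05), and the clock genes Ciart (0.34) and Hlf (0.13). Among activity-induced genes Egr4 had -0.41 and Fosb -0.24. Neither passed in edgeR (adjusted p = 0.344 and 0.825), and DESeq2 gave Egr4 an adjusted p of 0.0481. With mice matched by sex and series as a block, Egr4 passed in edgeR too (-0.40, adjusted p = 0.00232).

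Markers of other cells and regions were read beside Fkbp5, and their part in its difference was not tested. In bulk tissue, fewer cells of a type and less RNA per cell cannot be told apart. The summed hippocampus markers did not overlap between the genotypes, at 39.0 to 42.4 CPM in the libraries labelled heterozygous and 28.9 to 32.3 CPM in those labelled wild type. Fibcd1 was the called gene among them (0.77, edgeR adjusted p = 0.00462), and without it the sums of the 4 others overlapped, at 20.6 to 24.1 and 18.9 to 21.1 CPM. Astrocyte markers summed to 4318 to 4643 against 4645 to 4741 CPM, so the groups barely parted. Slc1a2, the largest part of these sums, overlapped at 2536 to 2857 against 2794 to 2833 CPM. Of the 8 markers 7 were below 0, with a median of -0.02. Gfap was at 0.36 and Aldoc at -0.11, and neither passed (edgeR adjusted p = 0.570 and 0.571). Gfap was the 1 astrocyte marker whose groups did not overlap, which 4.55% of tested genes had. The sums of the other 10 marker lists overlapped, and no other marker was called by edgeR. Within those lists, 1 of 6 microglia markers, Csf1r (0.17), and 1 of 9 oligodendrocyte markers, Opalin (-0.32), had groups without overlap. Neither passed (edgeR adjusted p = 0.346 and 0.446). The excitatory neuron markers with the smallest p were Neurod6 (0.25; edgeR adjusted p = 0.109, DESeq2 0.0481) and Tbr1 (0.12). All 5 red blood cell markers were below 0, among them Hbb-bt (-0.93) and Alas2 (-0.91), and none passed.

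Sex was a term of the fit that called Fkbp5, so its own sex value is not independent of how it was chosen. Fkbp5 was 42.1 ± 8.94 CPM in males and 35.2 ± 7.12 CPM in females (SD, n = 4 each), a log2 fold change of 0.25 ± 0.09 (SE), which did not pass (edgeR adjusted p = 0.9997). No member was called for sex by edgeR, DESeq2 or limma-voom, and 0.0288% of all tested genes were called. In edgeR 1 member (Fkbp5) had an unadjusted p under 0.05, against 2.92% of all tested genes. The genotype difference was also compared between males and females. No member was called for that interaction by any of the 3 tools, and 0% of tested genes were called. None of the members had an unadjusted p under 0.05 in edgeR, against 2.64% of all tested genes.

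The animal series were compared in the same way. Cdkn1a was 25.1 ± 4.82 CPM in the first series and 19.1 ± 3.496 CPM in the second (SD, n = 4 each), a log2 fold change of -0.39 ± 0.09 (SE; edgeR adjusted p = 0.0688). Ddit4 had -0.23 ± 0.10 (SE; edgeR adjusted p = 0.431). No member was called by edgeR, DESeq2 or limma-voom, and 2 had an unadjusted p under 0.05 in edgeR, against 10.2% of all tested genes. Over all tested genes 53 were called (0.382%). Of the other induced genes, Per1, a clock gene that glucocorticoids induce directly, was higher in the second series by 0.23 (edgeR adjusted p = 0.0437). The chaperone gene Hspa1b was lower, with a log2 fold change of -0.99 (edgeR adjusted p = 0.00387), as was Abcb1a, a steroid and drug exporter of the blood-brain barrier, with -0.47 (edgeR adjusted p = 0.0111). The interneuron gene Sst was higher by 0.22 (edgeR adjusted p = 0.0391). With each library left out in turn, Per1 kept its call only without wild type replicate 4 (edgeR adjusted p = 0.0299 to 0.331). Hspa1b lost its call only without heterozygous replicate 4 (edgeR adjusted p = 0.0546), and Abcb1a without heterozygous replicate 1, 3 or 4 (edgeR adjusted p = 0.096, 0.0856 and 0.0544). Sst kept its call only without heterozygous replicate 2 (edgeR adjusted p = 0.0268 to 0.167).

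Endothelial markers moved with the animal series as well. All 8 were lower in the second series, with a median of -0.42; Pecam1 (-0.53) and Ly6c1 (-0.40) were called by edgeR (adjusted p = 0.0437 and 0.0119). With a library left out, Pecam1 kept its call only without wild type replicate 1 (edgeR adjusted p = 0.0124 to 0.205), and Ly6c1 lost its call in the fits lacking wild type replicate 4 or any of heterozygous replicates 2, 3 and 4 (edgeR adjusted p = 0.0589, 0.0629, 0.0521 and 0.0994). Their summed level was 242.3 to 270.5 CPM in the first series and 181.9 to 230.5 CPM in the second. DESeq2 called Flt1 and Slco1a4 among these markers too, and the clock gene Dbp. Other marker lists also went 1 way between the series, with no edgeR call: striatum markers in 6 of 6 (median -0.32), red blood cell markers in 5 of 5 (-0.45) and mural markers in 7 of 8 (-0.18) were below 0, and leptomeningeal fibroblast markers in 5 of 5 above it (0.37). The part of these markers in the differences of Cdkn1a, Abcb1a and Per1 was not tested.

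**Figure D5:**
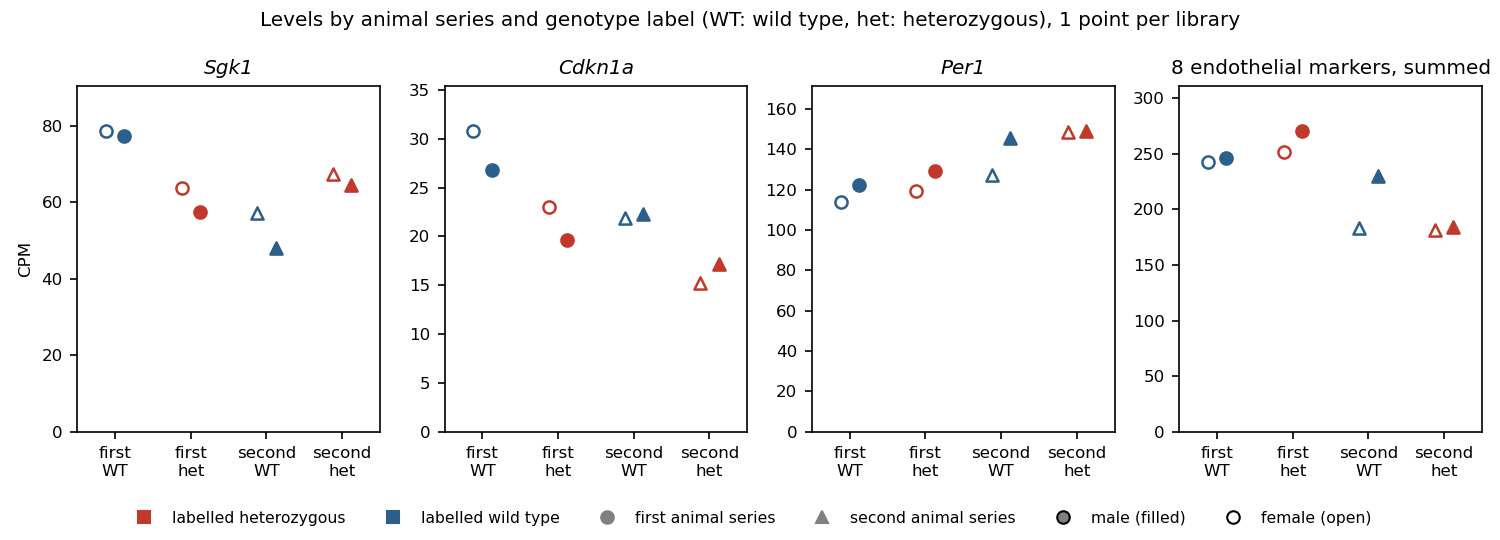
Level in CPM (vertical axes, from 0) of Sgk1, Cdkn1a and Per1 and the sum of 8 endothelial markers, 1 point per library, by animal series and labelled genotype. Sgk1 in the wild type libraries drops from 78.6 and 77.3 CPM in the first series to 48.2 and 57.3 CPM in the second, with the heterozygous libraries between 57.5 and 67.3 CPM in both.

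The genotype difference was also set side by side between the animal series, a comparison added after the data had been seen. In the first series 2 of 10 members, Fkbp5 and Nr3c2, had a difference above 0, with a median of -0.16. In the second series 8 of 10 did, with a median of 0.31, while over all tested genes the share above 0 was 49.1% and 50.1%. Both counts include Fkbp5, which the genotype contrast chose, so its own direction in either series is not a finding. The change from the first series to the second was not particular to the members. It was above 0 in 8 of 10 members, 22 of 29 other induced genes and 10 of 11 activity-induced genes. The medians were 0.325, 0.281 and 0.265, and 50.4% of tested genes were above 0. Sgk1 went from -0.36 in the first series to 0.32 in the second, a difference between the series of 0.69 ± 0.13 (SE; edgeR adjusted p = 0.0657, DESeq2 adjusted p = 0.0374). Tsc22d3 went from -0.17 to 0.30 (0.48 ± 0.13 SE; edgeR adjusted p = 0.464), Mt2 from -0.29 to 0.35 and Plin4 from -0.49 to 1.44. No member was called for this interaction by edgeR or limma-voom, and 1, Sgk1, was by DESeq2. In edgeR 2 members had an unadjusted p under 0.05, against 4.09% of all tested genes, and 0.00721% of all tested genes were called. Each series holds 2 libraries of a genotype.

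Striatum markers moved with this interaction as well, and their part in the members' values was not tested. All 6 were below 0 with a median of -0.61, and all 6 had an unadjusted p under 0.05 in edgeR, which 4.09% of all tested genes had. Drd2, a dopamine receptor gene, was at -3.17 ± 0.56 (SE; edgeR adjusted p = 0.0657), and DESeq2 called it. Their summed level in the first series was 383.3 and 377.9 CPM in the libraries labelled heterozygous and 307.0 and 285.5 CPM in those labelled wild type. In the second series it was 302.1 and 276.0 CPM against 298.2 and 321.4 CPM, so the groups were apart in the first series and overlapped in the second.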

How the data were processed

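Whole-number counts of reads for each gene symbol were deposited for 8 libraries, 1 per mouse, and the values show no normalisation by the authors. STAR 2.5.2b, HTSeq and the mm10 build are named in the submitters' processing notes; annotation and strand setting: not given in the sources used here. Depth was 16092773 to 17841377 counts per library. Genes were kept by edgeR's filterByExpr (minimum count 10), libraries scaled by TMM, and levels given as CPM. Genotype was tested beside sex by quasi-likelihood in edgeR (4.0.16, R 4.3.3, robust), calling a Benjamini-Hochberg adjusted p under 0.05; sex, animal series and interactions were further terms of such fits. No pair of libraries of a genotype agreed within sampling noise (lowest chi-square per degree of freedom 4.12).

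Correlations used log2(CPM + 0.5), centred within genotype, with 576 exact orders (smallest p 0.00174). Positions and exon lengths came from GENCODE M21 (GRCm38), which held all 10 members, and promoters from RefSeq. The named genes are the 10 members, Mef2c, and the 5 most and 5 least correlated with Fkbp5. From each list they are the genes called for genotype, sex or series, or else up to 2 with the smallest genotype p. Sdc4, Sult1a1, Errfi1, Glul, Crhr1, Crhbp, Slc1a2, Flt1, Slco1a4, Dbp and Drd2 lie outside this rule and were named after their values were seen. The lists comprised induced genes, chaperones, coregulators, corticosterone supply (ligand genes), clock and activity-induced genes, and 12 sets of cell or region markers. Members and lists were chosen with earlier results of these data known. Scripts were tested on simulated data. Alternatives were DESeq2 (1.42.0) size factors and Wald test, upper-quartile scaling, other filters, limma-voom (3.58.1), other covariates, other centring, and each library left out.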

Additional observations from a re-analysis of the deposited data

Results flagged for a closer look

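Ncoa2, a nuclear receptor coactivator gene, had 106 CPM in wild type replicate 3, apart from the 3 other wild type libraries at 119 to 121 CPM. It was the only one of 84 groups of 4 libraries so marked, and chance alone marks about 1 in 20 groups. For Sgk1, every heterozygous library lay below every wild type library in the first animal series and above them in the second, and the genotype difference differed between the series by 0.689 on the log2 scale (edgeR adjusted p = 0.0657). Tsc22d3 (0.477, edgeR adjusted p = 0.464) and Zbtb16 (0.241, edgeR adjusted p = 0.9994) showed the same crossing. None of the 3 passed in edgeR.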

How the results depend on the processing

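The 37 genotype calls became 82 without a filter, 80 by the DESeq2 Wald test and 72 with sex and animal series as terms, each time including all 37, and 19 to 80 with a library left out (19 without wild type replicate 2, 80 without heterozygous replicate 1). Calls among the members were 0 without the sex term (Fkbp5 0.45, edgeR adjusted p = 0.147), 2 with sex and series as terms, and 0 to 1 with a library left out. The 53 series calls became 95 without a filter, 1 of them a member (Cdkn1a), and 11 to 77 with a library left out; sex calls ran from 2 to 6 and calls of the sex interaction from 0 to 2. Calls of the series interaction were 14 without a filter and 4 by DESeq2, each with 1 member (Sgk1), and 0 to 7 with a library left out. Within 1 series the genotype difference turned for Sgk1 (0.32, second), Zbtb16 (0.093, second), Tsc22d3 (-0.17, first), Ddit4 (-0.077, first), Mt2 (-0.29, first) and Plin4 (-0.49, first), and within 1 sex for Ddit4 (-0.031, females) and Zbtb16 (0.028, males). With a library left out it ran from -0.17 to 0.10 for Sgk1, -0.066 to 0.025 for Zbtb16, -0.013 to 0.15 for Tsc22d3, -0.17 to 0.24 for Mt2 and -0.13 to 0.0016 for Ncoa2. The r of Nr3c1 and Nr3c2 with Fkbp5 turned to -0.21 and 0.14 without centring, and that of Cdkn1a ran from -0.65 to 0.26 with a library left out. The cause of these changes was not tested. The labels name no pairs of mice, and equal replicate numbers in the 2 genotypes do not stand for pairs. Matching mice by sex and series as a block, added after seeing the data, gave 124 genotype calls. These included all 37, and 2 were among the members (Fkbp5, Cdkn1a). At 18 to 142 counts, Plin4 is the member whose depth limits it most.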
